A study of Homo sapiens with 12 samples.

Results

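The comparison set double knock-down of ETV6 and NFKB1 against single knock-down of ETV6 in U251 cells, a long-established line from a human glioblastoma that was grown with serum. Its members are 6 of the 12 expression arrays of the series: the 3 arrays of cells given small interfering RNA (siRNA) against both transcripts, called double siRNA here, and the 3 arrays of cells given ETV6 siRNA. Both groups carried ETV6 siRNA, so the difference between them is what came with NFKB1 siRNA. The other 6 arrays, 3 with a non-targeting control siRNA and 3 with NFKB1 siRNA, served as context. Each siRNA was a commercial pool of siRNAs against 1 transcript, transfected with the same lipid reagent at 50 nM. The labels do not say whether cells with a single targeting siRNA received control siRNA besides. If they did not, the double group had the larger total siRNA load, which cannot be told apart from NFKB1 loss here. The values are log2 probe set levels, so that a difference of 1 is a doubling, and 1 probe set per gene was used, the brightest over all arrays. Of 10346 genes measured, 7760 passed the filter on low levels and were tested with limma. Whether the 3 samples of a group were independent cultures is not stated, so the spread behind each p-value may be technical.

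NF-kB is a family of dimeric transcription factors that wait in the cytoplasm bound to inhibitors of the IkB type. Receptors for tumour necrosis factor, interleukins or microbial products lead to kinases that tag the inhibitors for destruction, and the freed dimers switch on genes for cytokines, adhesion, survival and their own inhibitors. NFKB1 encodes p105, the precursor of the subunit p50, which pairs with RELA; homodimers of p50 lack an activation domain and can repress. ETV6 is a repressor of the ETS family, whose members bind a short core sequence in many promoters. In glioblastoma NF-kB is known for its link to a mesenchymal state and to therapy resistance.

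Both targeted transcripts were reduced, but not to the same depth in both groups. NFKB1 stood at 7.85, 7.74 and 7.85 with ETV6 siRNA and at 6.50, 6.58 and 6.57 with double siRNA, on its only probe set. All double arrays lay below all ETV6 siRNA arrays. The difference was -1.26 ± 0.18 (SE, n = 3 arrays per group; adjusted p = 3.83e-05), which left 41.7% of the level with ETV6 siRNA. The double values of NFKB1 lay close to the 5th percentile of their arrays (6.15 to 6.16), so the 41.7% rests on levels near the floor. ETV6 stood at 6.80, 6.78 and 6.60 with ETV6 siRNA and at 7.44, 7.36 and 7.29 with double siRNA, where control cells averaged 8.87. ETV6 was thus reduced in both groups, and less deeply in the double group, by 0.64 ± 0.11 (adjusted p = 0.000157); its second probe set gave 0.70. The lower NFKB1 therefore went together with a higher ETV6, and the part of each in the values that follow was not tested.

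The 3 double arrays also stood apart from the other 9 in several array-level measures. The 5th percentile of an array lay between 6.15 and 6.16 with double siRNA against 5.74 to 5.97 with ETV6 siRNA, and the poly-A spike-in controls averaged 7.97 to 8.05 against 8.37 to 9.15. The ACTB probe sets at the 3' end exceeded those at the 5' end by 2.05 to 2.16 against 1.58 to 1.68 (a gap in use as a check of RNA quality). For GAPDH it was 0.46 to 0.51 against 0.42 to 0.49, which overlap. Control siRNA replicate 3 lay toward the double arrays in the 5th percentile (6.04) and the ACTB gap (1.91), though not in poly-A controls (8.53). Its level enters the comparison of NFKB1 siRNA with control, the interaction, and every control mean and difference from control given here. The difference of double and ETV6 siRNA does not use its level, though the spread behind the SE does. The part of these array differences in the results was not tested. Of 20 astrocyte and glioma stem markers 12 had a probe set, and these 12 passed the filter on low levels. GFAP lay at 12.82 to 13.31 and VIM at 14.50 to 14.53 over the 6 arrays, both named after their values were seen. Of 22 markers of epithelial, immune, endothelial, neuronal and oligodendrocyte cells 4 had a probe set and 2 were tested, KRT18 and TUBB3. In bulk RNA, fewer cells of a kind and less of a transcript per cell cannot be told apart.

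Adding NFKB1 siRNA to ETV6 siRNA went with a different level of most transcripts. Of 7760 genes 2711 were higher with double siRNA and 3975 were lower at an adjusted p under 0.05, which is 34.9% and 51.2%, or 86.2% in both directions. The median of all genes was not 0 but -0.15, so that a gene with a small fall moved with the bulk. More than 1.5-fold higher were 1450 genes (18.7%) and more than 1.5-fold lower 1198 (15.4%). This order turned over with scaling, to 1215 higher and 2106 lower once all arrays were set to a common median and to 1317 and 1911 after quantile normalization. Past 2-fold the higher genes were more numerous under all 3 scalings: 715 (9.21%) against 55 (0.709%) as deposited, 543 against 131 at a common median and 600 against 116 after quantile normalization. Past 4-fold there were 22 higher genes as deposited, 11 at a common median and 15 after quantile normalization, and 0 lower ones under each. The arrays of a group were close to each other, the median SD being 0.07 for ETV6 siRNA and 0.05 for double siRNA, and for 6985 genes (90.0%) the 3 double arrays lay all above or all below the 3 ETV6 siRNA arrays. The split depended on scaling: 40.6% of called genes were higher as deposited, 34.0% once all arrays were set to a common median, where the median of all genes was -0.27, and 36.8% after quantile normalization, where it was -0.23.

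**Figure D1:**
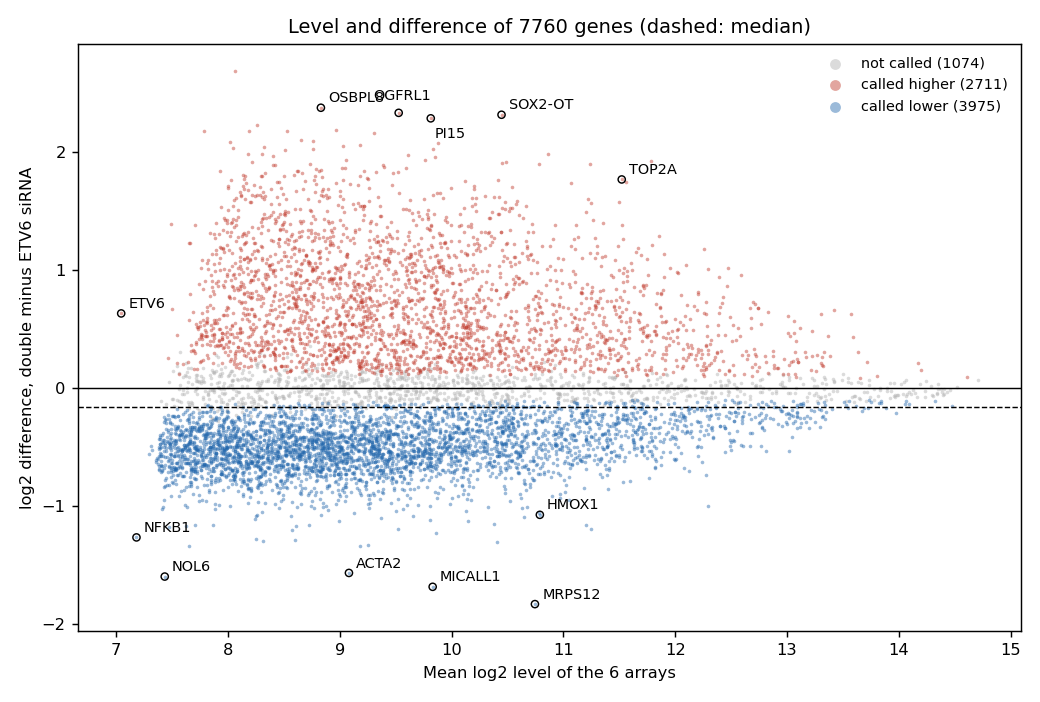
Each of 7760 tested genes is 1 point, with the mean log2 level of the 6 arrays on the x axis and the log2 difference, double minus ETV6 siRNA, on the y axis; red genes were called higher, blue lower, grey not called, and the dashed line is the median of -0.15. The lowest genes are MRPS12 at -1.83, MICALL1 at -1.68, NOL6 at -1.60 and ACTA2 at -1.56, while the higher genes spread past 2.

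The lowest genes included components of protein synthesis, of the actin cytoskeleton and of adhesion. The largest fall was that of MRPS12, a protein of the small mitochondrial ribosomal subunit, which went from 11.72, 11.61 and 11.65 with ETV6 siRNA to 9.83, 9.86 and 9.81 with double siRNA. The groups were far apart and each was tight; the difference was -1.83 ± 0.07 (adjusted p = 8.49e-08), a 3.55-fold fall, and another of its probe sets gave -1.54. MICALL1, which works in the recycling of membrane from endosomes, went from 10.79, 10.61 and 10.63 to between 8.93 and 9.05 (-1.68 ± 0.12, adjusted p = 1.04e-06). ACTA2, the smooth muscle actin that marks contractile and mesenchymal cells, went from 9.87, 9.90 and 9.82 to 8.23, 8.45 and 8.22 (-1.56 ± 0.08, adjusted p = 4.53e-07). In none of the 3 did any array of one group reach the other group, which the rule that named them required.

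Nucleolar genes were also among the 12 lowest. NOL6, a processing factor of the small ribosomal subunit, stood at 8.37, 8.16 and 8.16 against 6.63, 6.74 and 6.55 (-1.60 ± 0.13, adjusted p = 2.12e-06), with double arrays close to the 5th percentile of their values. GRWD1, a ribosome assembly factor, fell by 1.29 ± 0.13 and POLR1G, a subunit of RNA polymerase I, by 1.34 ± 0.11. Cell contact genes fell beside them: ITGB4, the integrin chain of hemidesmosomes, by 1.32 ± 0.09, and the LIM proteins AJUBA and ZYX, found at cell junctions and focal adhesions, were at -1.31 ± 0.14 and -1.28 ± 0.15. TRAPPC1, part of a vesicle tethering complex, fell by 1.34 ± 0.12 and the membrane protein gene DGCR2 by 1.29 ± 0.07. The adjusted p of these 8 genes was at most 1.05e-05, and NFKB1 itself was the last of the 12.

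The highest genes had no common role that is evident from their names. OSBPL8, a lipid transfer protein of the endoplasmic reticulum, stood at 7.51, 8.05 and 7.36 with ETV6 siRNA and at 10.09, 9.96 and 10.02 with double siRNA. The double arrays were tight and the ETV6 siRNA arrays were not, replicate 2 being the highest of them; the difference was 2.38 ± 0.28 (adjusted p = 1.17e-05), a 5.20-fold rise. XRN1, the main exonuclease that degrades decapped mRNA, went from 7.31, 7.46 and 6.66 to 9.42, 9.40 and 9.29 (2.23 ± 0.32, adjusted p = 5.13e-05). TIA1, an RNA-binding protein of stress granules, went from 7.35, 7.81 and 7.64 to 9.76, 9.63 and 9.74 (2.11 ± 0.20, adjusted p = 4.08e-06). All double arrays of these genes lay above all ETV6 siRNA arrays, again a condition of the naming rule. SOX2-OT, the long non-coding RNA around the stem cell gene SOX2, rose by 2.32 ± 0.21, while SOX2 itself, named after its value was seen, was at 0.18 ± 0.05, a call lost with arrays at a common median (0.06) and as the mean of its probe sets. DEPDC1, a gene of mitosis, rose by 2.19 ± 0.21, LIN7C, a scaffold protein of cell polarity, by 2.16 ± 0.16, and SPOPL, an adaptor of a ubiquitin ligase, by 2.10 ± 0.23. DMXL1, EVI5 and PCMTD1 rose by between 2.18 and 2.19.

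Some of the highest genes depended on the probe set. PI15, a secreted protease inhibitor, rose by 2.29 ± 0.31 on its brightest probe set and was at 0.21 on another, and OGFRL1 rose by 2.34 ± 0.20 and was at 0.36 on another. Over the 4482 genes with more than 1 probe set, 89.0% had the same sign on the brightest and the next brightest, and the correlation across these genes, which are not independent replicates, was 0.83. Most signs were therefore shared between probe sets of a gene.

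The NF-kB pathway did not move one way. Of its tested receptors 3 of 4 fell, its kinases and adaptors split, 6 of 7 subunits and inhibitors fell, and its target genes split. Of all tested genes 51.2% fell and 34.9% rose. Because promoters of classical target genes carry sites for NF-kB, those of 2 genes that fell (NFKBIA, IRF1) and 2 that rose (IL6, VCAM1) are shown first, to set the site beside the direction. They come from the RefSeq promoter table for GRCh38.p14, as the 250 bases before the annotated start of each gene on its own strand, 5′ to 3′, with the match to the NF-kB consensus in capitals. Each holds 1 match, and the first base of the match lies at -81 (NFKBIA), -50 (IRF1), -73 (IL6) and -62 (VCAM1) from the start.
NFKBIA, chr14:35404750-35404999, minus strand: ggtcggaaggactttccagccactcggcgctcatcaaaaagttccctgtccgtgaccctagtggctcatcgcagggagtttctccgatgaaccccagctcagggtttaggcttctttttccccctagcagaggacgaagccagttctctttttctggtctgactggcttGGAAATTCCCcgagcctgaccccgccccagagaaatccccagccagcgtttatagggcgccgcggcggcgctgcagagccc
IRF1, chr5:132490774-132491023, minus strand: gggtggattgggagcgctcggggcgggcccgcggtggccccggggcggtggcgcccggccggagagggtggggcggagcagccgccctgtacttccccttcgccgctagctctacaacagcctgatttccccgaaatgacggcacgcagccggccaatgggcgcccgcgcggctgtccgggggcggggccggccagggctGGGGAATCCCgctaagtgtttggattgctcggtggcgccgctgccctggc
IL6, chr7:22726950-22727199, plus strand: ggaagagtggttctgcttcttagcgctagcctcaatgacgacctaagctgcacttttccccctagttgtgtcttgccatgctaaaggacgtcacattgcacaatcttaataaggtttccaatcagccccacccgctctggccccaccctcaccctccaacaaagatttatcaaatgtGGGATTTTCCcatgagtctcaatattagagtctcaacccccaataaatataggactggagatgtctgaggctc
VCAM1, chr1:100719492-100719741, plus strand: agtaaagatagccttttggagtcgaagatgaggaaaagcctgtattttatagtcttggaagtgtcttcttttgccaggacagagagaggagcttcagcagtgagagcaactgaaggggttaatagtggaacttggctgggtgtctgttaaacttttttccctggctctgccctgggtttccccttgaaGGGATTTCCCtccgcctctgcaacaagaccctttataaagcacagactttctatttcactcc

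Of the receptors 3 of 4 tested members were called lower and 0 higher, beside 51.2% and 34.9% of all genes, with a median of -0.64. TNFRSF12A, the receptor for the cytokine TWEAK, stood at 12.01, 11.89 and 11.89 with ETV6 siRNA and at 11.04, 11.22 and 11.15 with double siRNA (-0.80 ± 0.08, adjusted p = 5.42e-06). LTBR, the lymphotoxin receptor, fell by 0.66 ± 0.07, and TNFRSF1A, the main receptor for tumour necrosis factor, by 0.62 ± 0.09. CD40, which drives the non-canonical pathway, was at 7.90, 8.02 and 8.24 against 7.84, 7.64 and 7.84, a difference of -0.28 ± 0.13 that did not pass (adjusted p = 0.0674). Of the members below the filter, TLR4, the receptor for bacterial lipopolysaccharide and named after its values were seen, lay between 6.44 and 6.74 with ETV6 siRNA and between 8.41 and 8.49 with double siRNA. Its arrays did not overlap, like those of 90.0% of the genes tested. TLR4 was not tested because its mean over all 12 arrays was too low.

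The signalling proteins between receptor and inhibitor split into those that rose and those that fell. Of 15 tested 7 were higher and 6 lower, beside 34.9% and 51.2% of all genes. The median was -0.01, against -0.15 for all genes. CHUK, the kinase IKKα, stood at 8.04, 8.26 and 8.12 with ETV6 siRNA and at 9.30, 9.52 and 9.44 with double siRNA (1.28 ± 0.14, adjusted p = 8.42e-06). MAP3K7, the kinase TAK1 upstream of it, went from 7.76, 7.93 and 7.86 to 9.06, 9.02 and 9.10 (1.21 ± 0.11, adjusted p = 3.47e-06). The groups of both genes were more than 1 unit apart at their nearest arrays. TBK1, a related kinase of interferon induction, rose by 1.15 ± 0.11 and TAB3, a partner of TAK1, by 1.02 ± 0.10. Among genes named after their values were seen, the kinase NIK (MAP3K14) fell by 0.84 ± 0.11, the scaffold IKBKG by 0.55 ± 0.10 and the adaptor MYD88 by 0.53 ± 0.07, whereas the kinase IKBKB was at -0.09 ± 0.06 (adjusted p = 0.144).

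Subunits and inhibitors were lower where they were called. Of 7 tested 6 were called lower and 0 higher, beside 51.2% and 34.9% of all genes. The median was -0.61, against -0.15 for all genes. NFKB1, the target of the siRNA, is 1 of the 6. RELA, the activating partner of p50, stood at 9.35, 9.30 and 9.22 with ETV6 siRNA and at 8.56, 8.66 and 8.71 with double siRNA (-0.65 ± 0.10, adjusted p = 6.18e-05), with another probe set at -0.36. NFKBIA, the inhibitor IkBα and a classical NF-kB target, went from 10.47, 10.32 and 10.28 to 9.78, 9.79 and 9.68 (-0.61 ± 0.07, adjusted p = 1.02e-05). NFKBIE, the inhibitor IkBε, went from 8.14, 7.99 and 7.92 to 7.13, 7.28 and 7.05 (-0.87 ± 0.09, adjusted p = 7.93e-06). None of the 3 overlapped between the groups, and neither did 90.0% of all genes tested. The adaptors of the A20 protein, TNIP1 and TNIP2, fell by 0.42 ± 0.06 and 0.46 ± 0.06. The deubiquitinase CYLD, at 8.68, 8.78 and 8.74 against 8.73, 8.79 and 8.76, did not pass (0.03 ± 0.07, adjusted p = 0.724), although the mean of its probe sets was 0.51.

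The members of that list that were too low to be tested went both ways. REL lay at 5.23 to 5.57 with ETV6 siRNA and at 6.56 to 6.70 with double siRNA, and NFKBIZ, a nuclear inhibitor protein that co-activates IL6, at 6.66 to 6.92 and 7.92 to 8.07. RELB, the subunit of the non-canonical pathway, lay at 6.39 to 6.58 and 5.71 to 5.89, and NFKBIB at 7.25 to 7.45 and 6.72 to 6.86. TNFAIP3, which encodes A20, lay at 7.58 to 7.73 and 7.32 to 7.48. The groups of these 5 genes did not overlap, and neither did those of 90.0% of the genes tested.

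Among NF-kB target genes 4 of 12 tested rose and 7 fell, shares near those of all genes, with a median of -0.42. A protease and a chemokine showed the largest falls. PLAU, the urokinase that activates plasminogen at the cell surface, stood at 11.44, 11.26 and 11.37 with ETV6 siRNA and at 10.34, 10.54 and 10.44 with double siRNA (-0.91 ± 0.06, adjusted p = 9.52e-07). CCL2, the chemokine that attracts monocytes, went from 9.23, 9.07 and 9.22 to 8.25, 8.35 and 8.26 (-0.89 ± 0.10, adjusted p = 8.42e-06). CCL2 with ETV6 siRNA was 0.65 above control, a difference that shares the ETV6 siRNA arrays, and the control mean was 8.52. IRF1, a transcription factor of the interferon response, fell by 0.78 ± 0.10, the survival gene BCL2L1 by 0.76 ± 0.10 (-0.50 as the mean of its probe sets), TNFAIP2 by 0.72 ± 0.11 and the stress gene GADD45B by 0.62 ± 0.08. CFLAR, which blocks caspase 8, was called by a narrow margin at -0.22 ± 0.08 (adjusted p = 0.029), and lost the call in 4 of its alternatives: -0.05 as the mean of its probe sets (adjusted p = 0.429), -0.22 when ETV6 siRNA replicate 1 was left out (adjusted p = 0.0633), -0.19 when its replicate 2 was left out (0.0913) and -0.18 when double siRNA replicate 3 was left out (0.1).

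The targets that rose were an adhesion molecule, a cytokine and inhibitors of apoptosis. VCAM1, the adhesion molecule that leukocytes bind, stood at 7.46, 7.28 and 6.99 with ETV6 siRNA and at 8.83, 8.71 and 8.73 with double siRNA (1.51 ± 0.15, adjusted p = 4.63e-06), a 2.86-fold rise. BIRC2, the ubiquitin ligase cIAP1, went from 9.58, 9.80 and 9.66 to 11.18, 11.21 and 11.08 (1.48 ± 0.18, adjusted p = 1.49e-05), and XIAP, an inhibitor of caspases, from 9.41, 9.61 and 9.37 to 10.90, 10.84 and 10.78 (1.38 ± 0.14, adjusted p = 5.16e-06). No array of the 3 genes crossed between the groups, which held for 90.0% of all genes tested. IL6, the cytokine that activates STAT3, went from 7.68, 7.56 and 7.58 to 8.24, 8.14 and 8.12 (0.56 ± 0.08, adjusted p = 3.84e-05). CXCL8, the neutrophil chemokine, was at 8.49, 8.76 and 8.52 against 8.54, 9.13 and 8.51, which overlap (0.14 ± 0.16, adjusted p = 0.428), where control cells averaged 9.72. The chemokines CXCL2 and CXCL3 overlapped between the groups as well, between 5.99 and 6.67, while LIF was at 6.36 to 6.44 and 5.93 to 6.08; these 3 genes were below the filter.

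**Figure D2:**
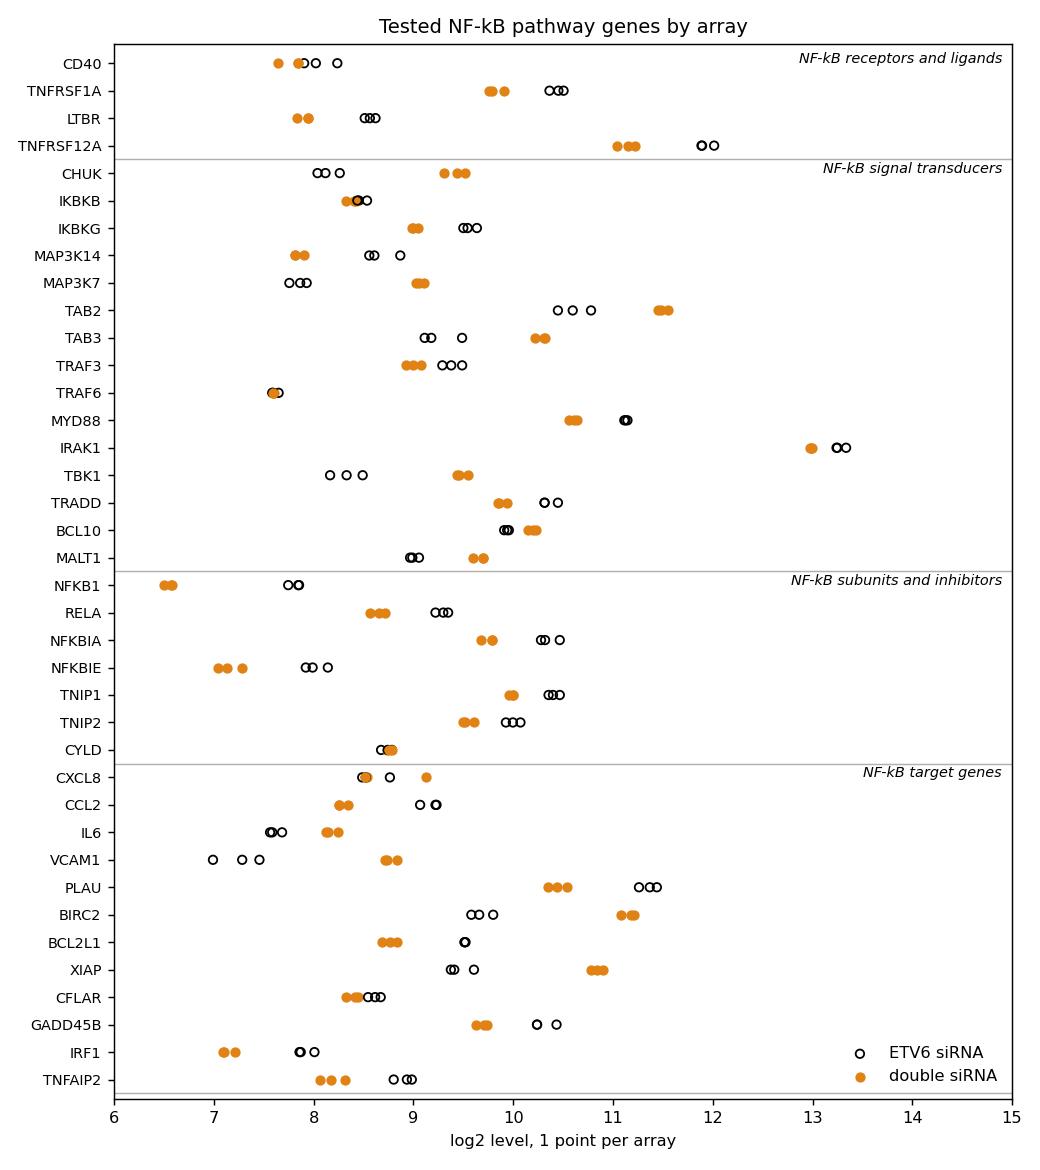
Log2 levels of the 38 tested genes of the NF-kB lists, 1 point per array, open for ETV6 siRNA and orange for double siRNA; rows run from receptors through signal transducers and subunits to target genes. Receptors and subunits sit to the left with double siRNA, whereas CHUK, MAP3K7, VCAM1, BIRC2 and XIAP sit more than 1 unit to the right, and CYLD, TRAF6 and CXCL8 overlap.

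The sequences printed above hold the same consensus in genes that moved oppositely. Of 19 tested NF-kB subunits, inhibitors and targets 17 had an entry in the promoter table and 6 a match to the consensus within 250 bases before and 50 after the start: NFKB1, NFKBIA, CFLAR and IRF1, which were called lower, and IL6 and VCAM1, which were called higher. Across all tested genes, of which 84.7% had an entry, 6.51% of promoters held a match on either strand, against 5.96% for genes called higher, 6.85% for genes called lower and 5.72% for all 27305 promoters of the table. Among genes more than 2-fold lower it was 17.0%, from 8 of 47 promoters, among them that of NFKB1, the target of the siRNA. This set held 55 genes as deposited, 131 with arrays at a common median and 116 after quantile normalization. The share was taken only for the set as deposited, and its difference from the share of all genes was not tested. A match is a description of letters and not a bound site.

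Transcription factors of the ETS family, the family of ETV6, were called higher more often than lower. Of 14 tested members 8 rose and 4 fell (8 and 6 with arrays at a common median), beside 34.9% and 51.2% of all genes, with a median of 0.48 beside -0.15 for all genes. GABPA, a factor that drives many housekeeping and mitochondrial genes, stood at 7.31, 7.61 and 6.89 with ETV6 siRNA and at 8.98, 9.02 and 8.96 with double siRNA (1.71 ± 0.24, adjusted p = 4.73e-05), although another probe set gave 0.37. ELK4, a partner of serum response factor, rose 2.82-fold (SE 0.21 on the log2 scale) and ELF1 by 1.24 ± 0.10, from 7.52, 7.71 and 7.40 to 8.75, 8.84 and 8.75. The double arrays of these 3 genes were all above the ETV6 siRNA arrays, where 90.0% of all tested genes did not overlap. ELF2 rose by 0.71 ± 0.12 with another probe set at -0.04, ETS1 by 0.57 ± 0.06, ETV3 by 0.53 ± 0.09 and ELK3 by 0.44 ± 0.07, and ETV6 itself is the 8th of those that rose. The repressor ERF fell by 0.76 ± 0.09, ELF4 by 0.73 ± 0.08, ELK1 by 0.49 ± 0.07 and ETV5 by 0.34 ± 0.09, which lost its call as the mean of its probe sets (-0.11, adjusted p = 0.194). ETS2 at -0.15 ± 0.11 and FLI1 at -0.11 ± 0.12 did not pass. The ETS core CCGGAA, searched with its reverse complement TTCCGG, was held by 31.5% of promoters of genes called higher, 32.7% of those called lower and 32.6% of all tested, against 17.6% of all promoters in the table.

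Genes of mitosis were the list with the largest share of higher members. Of 37 tested genes of G2/M and the spindle 31 rose and 4 fell, beside 34.9% and 51.2% of all genes. More than 1.5-fold rose 19 of the 37 (beside 18.7% of all genes), and the median was 0.88. TOP2A, the topoisomerase that untangles sister chromatids, stood at 10.56, 10.91 and 10.44 with ETV6 siRNA and at 12.38, 12.43 and 12.41 with double siRNA (1.77 ± 0.15, adjusted p = 2.64e-06). CCNA2, cyclin A2, went from 9.28, 9.36 and 9.29 to 10.40, 10.42 and 10.50 (1.13 ± 0.06, adjusted p = 5.31e-07). The motor protein genes KIF11 and KIF23, which build the spindle and the midbody, rose by 1.10 ± 0.10 and 1.06 ± 0.09. The groups of all 4 genes were apart on every array, as were those of 90.0% of all genes tested. The list lay below control with ETV6 siRNA (median -0.32) and with NFKB1 siRNA alone (-0.26), both against the same control arrays. TOP2A had a mean of 12.41 with double siRNA and 11.21 in control. The list was not uniform: among genes named after their values were seen, AURKB was at -0.47 ± 0.06, CDC20 at -0.34 ± 0.08 and MKI67 at 0.20 ± 0.06. The call of AURKB was lost as the mean of its probe sets (-0.22, adjusted p = 0.0743), and that of MKI67 with arrays at a common median (0.09) and after quantile normalization.

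Genes of the G1/S transition did not share that direction. Of 34 tested 11 rose and 16 fell, near the shares of all genes, with a median of -0.05. CDT1, which licenses replication origins, stood at 9.50, 9.32 and 9.27 against 8.23, 8.43 and 8.22 (-1.07 ± 0.10, adjusted p = 3.86e-06). MCM5, a subunit of the replicative helicase, fell by 0.85 ± 0.07 and cyclin D3 (CCND3) by 0.81 ± 0.07, while POLA1, the DNA polymerase that starts strands, rose by 0.94 ± 0.08. Genes of DNA damage signalling and repair rose in 10 of 17 cases and fell in 3 (8 and 5 with arrays at a common median). Of all genes 34.9% rose and 51.2% fell. The median of the list was 0.29. NBN, which senses double-strand breaks, stood at 9.21, 9.55 and 9.28 against 11.11, 11.04 and 11.05 (1.72 ± 0.17, adjusted p = 4.63e-06), the kinase ATR rose by 1.32 ± 0.16, FANCI by 1.12 ± 0.13 with another probe set at 0.02, and BRCA1 by 0.85 ± 0.12. No array of NBN with double siRNA was near those with ETV6 siRNA.

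Genes for mitochondrial ribosomal proteins were lower in 51 of 75 cases and higher in 11 (68.0% and 14.7%, beside 51.2% and 34.9% of all genes), with a median of -0.28, and 11 fell more than 1.5-fold. Besides MRPS12, MRPL2 fell by 0.67 ± 0.06, MRPL23 by 0.56 ± 0.05 and MRPL11 by 0.53 ± 0.05. Of 32 ribosome biogenesis genes 16 fell and 10 rose, near the shares of all genes, with a median of -0.23; NOP16 and RRP12 fell by 0.64 ± 0.05 and 0.69 ± 0.06 beside NOL6 and GRWD1. Of 56 genes for cytosolic ribosomal proteins 13 fell and 4 rose, 39 were not called and none moved more than 1.5-fold, with a median of -0.04. This count depended on scaling, since 39 fell and 0 rose once all arrays were set to a common median. RPL36 fell by 0.29 ± 0.05, RPL18 by 0.26 ± 0.05 (-0.41 as the mean of its probe sets), RPL39L by 0.53 ± 0.08, and RPL7 rose by 0.22 ± 0.04, a call lost after that shift (0.10, adjusted p = 0.151).

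Factors that charge tRNAs and start translation moved both ways. The counts of this paragraph stand beside 51.2% lower and 34.9% higher of all tested genes. Of 26 aminoacyl-tRNA synthetases 15 fell and 8 rose, with a median of -0.31: YARS1 fell by 0.88 ± 0.05 and AARS1 by 0.65 ± 0.05, whereas IARS2 and TARS1 rose by 0.75 ± 0.08 and 0.62 ± 0.07. Of 50 initiation and elongation factors 24 fell and 21 rose. EIF4EBP1, the brake on cap-dependent initiation that mTOR releases, stood at 10.27, 10.19 and 10.14 against 9.15, 9.28 and 9.20 (-0.99 ± 0.07, adjusted p = 1.31e-06), and EIF5A, which helps ribosomes through prolines, at 11.27, 11.27 and 11.38 against 10.12, 10.32 and 10.31 (-1.05 ± 0.11, adjusted p = 5.69e-06). Both were apart on every array, like 90.0% of all genes tested. EIF6 fell by 0.66 ± 0.06 and EIF1AX, a start codon factor, rose by 1.00 ± 0.09. Nuclear genes of oxidative phosphorylation fell in 38 of 71 cases and rose in 13, with a median of -0.14 close to that of all genes; the complex I genes NDUFV3, NDUFA3, NDUFB10 and NDUFA9 were at -0.61 ± 0.05, -0.50 ± 0.05, -0.48 ± 0.05 and -0.47 ± 0.04.

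Most tested genes of the extracellular matrix were lower. Of 29 tested 21 fell and 3 rose (72.4% and 10.3%, beside 51.2% and 34.9% of all genes), 10 fell more than 1.5-fold, and the median was -0.47. MMP14, a membrane-bound protease that cleaves collagen and activates MMP2, stood at 10.91, 10.81 and 10.75 with ETV6 siRNA and at 9.82, 9.83 and 9.82 with double siRNA, 49.9% of the former (SE 0.06 on the log2 scale, adjusted p = 7.35e-07). COL4A2, a basement membrane collagen chain, went from 11.11, 11.07 and 11.01 to 10.20, 10.27 and 10.29 (-0.81 ± 0.07, adjusted p = 3.65e-06). All double arrays of both lay below all ETV6 siRNA arrays, where 90.0% of all tested genes did not overlap. COL6A3 fell by 0.81 ± 0.08 and LOXL2, which crosslinks collagen, by 0.71 ± 0.07. The integrins that bind matrix split evenly, 6 higher and 6 lower of 12 (5 and 6 with arrays set to a common median): ITGB1, the chain shared by most collagen and fibronectin receptors, rose from 12.05, 12.23 and 12.03 to 13.08, 13.01 and 13.11 (0.96 ± 0.06), ITGB8 rose by 1.57 ± 0.13 and ITGA6 by 0.98 ± 0.09, while ITGB4 fell as given above.

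Of 12 receptor tyrosine kinases known from glioblastoma 8 fell and 3 rose, beside 51.2% and 34.9% of all genes, with a median of -0.34. EPHA2 stood at 10.59, 10.35 and 10.49 against 9.47, 9.57 and 9.45 (-0.98 ± 0.09, adjusted p = 3.59e-06), and AXL, a mesenchymal marker, fell by 0.55 ± 0.06. MET, the receptor for hepatocyte growth factor, rose by 1.00 ± 0.11 with another probe set at 0.11, and the collagen receptor DDR2 by 1.22 ± 0.13. Of 18 immediate early and MAPK feedback genes 12 fell and 4 rose, against the same shares of all genes, with a median of -0.33. MYC stood at 8.98, 8.89 and 9.03 against 7.86, 8.08 and 7.93 (-1.01 ± 0.08, adjusted p = 2.18e-06), FOSL1, a component of AP-1, fell by 0.96 ± 0.11 and KLF2 by 0.85 ± 0.08, while KLF6 rose by 0.76 ± 0.06. Of 12 astrocyte and glioma stem markers 4 fell, 3 rose and 5 were not called: NES, the intermediate filament nestin, stood at 11.16, 11.21 and 11.16 against 10.18, 10.18 and 10.14, which is 49.85% of the level with ETV6 siRNA (SE 0.08 on the log2 scale, adjusted p = 1.67e-06), CHI3L1 fell by 0.84 ± 0.13 and TIMP1 by 0.50 ± 0.07, and S100B rose by 0.45 ± 0.08. VIM at 0.01 ± 0.04 did not pass. KRT18 and TUBB3, the only tested markers of other cell types, fell by 0.70 ± 0.10 and 0.22 ± 0.05; with arrays at a common median TUBB3 was at -0.33.

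**Figure D3:**
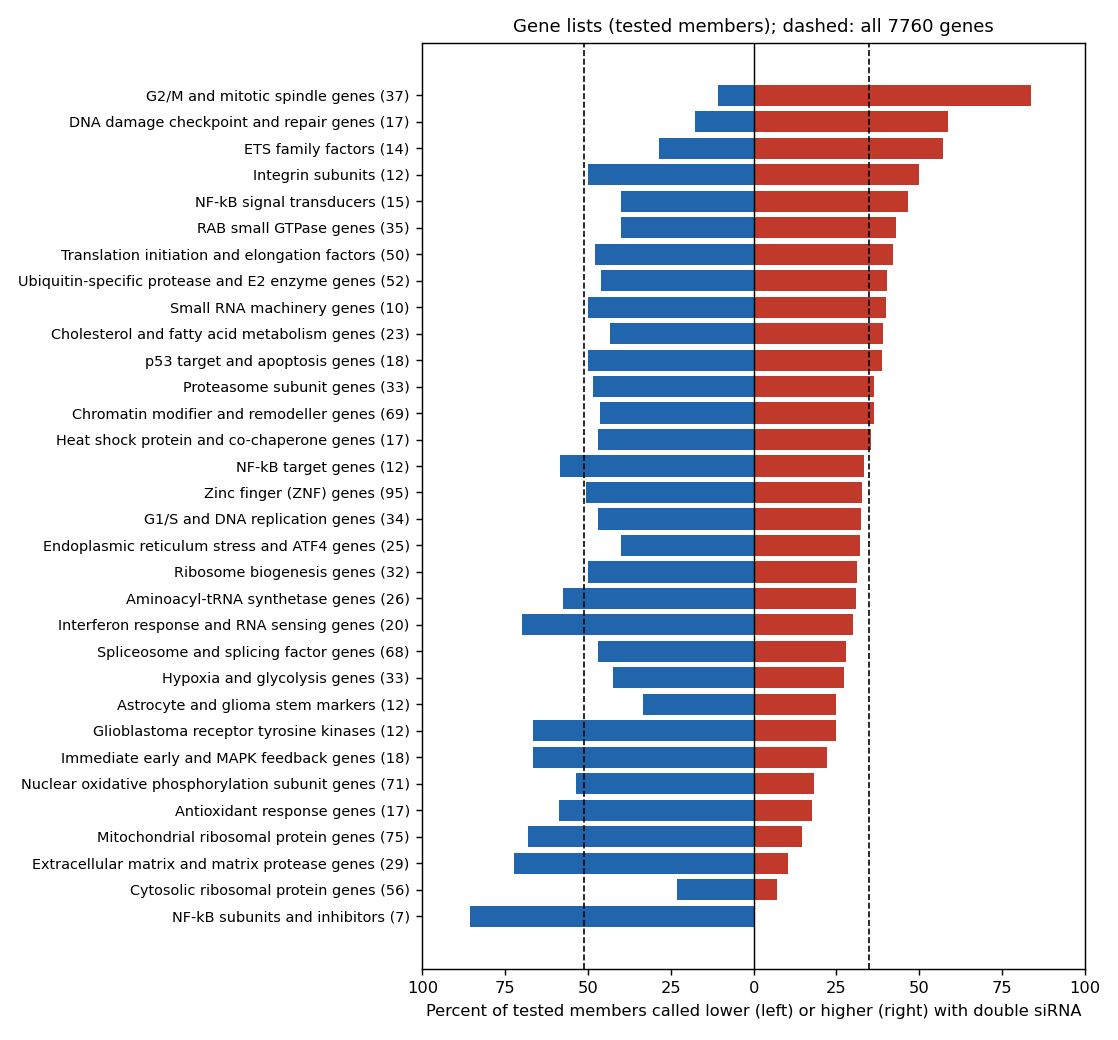
For each list with at least 7 tested members (number in parentheses) the bars give the percent called lower (blue, left) and higher (red, right) with double siRNA; dashed lines mark the 51.2% and 34.9% of all tested genes. Genes of G2/M and the spindle reach 83.8% higher, extracellular matrix genes 72.4% lower and NF-kB subunits and inhibitors 85.7% lower, while most lists lie close to both lines.

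Stress programmes moved in parts. The counts of this paragraph stand beside 51.2% lower and 34.9% higher of all tested genes, with a median of -0.15. HMOX1, the heme oxygenase induced by oxidative stress, stood at 11.39, 11.29 and 11.29 with ETV6 siRNA and at 10.32, 10.27 and 10.17 with double siRNA (-1.07 ± 0.05, adjusted p = 4.53e-07). Its control mean was 9.96 and its mean with NFKB1 siRNA alone 11.11, so each siRNA alone gave a higher mean than both together. Of 17 antioxidant genes 10 fell and 3 rose, with a median of -0.17; KEAP1 fell by 0.43 ± 0.05, and SLC7A11, the cystine importer, rose by 2.03 ± 0.22 with another probe set at -0.38. GCLM was at -0.44 ± 0.06 on its brightest probe set, at 0.79 on another and at 0.32 as the mean of its probe sets, so that its direction depended on the probe set. Of 25 genes of the endoplasmic reticulum stress response and ATF4, 10 fell and 8 rose, and those of serine and asparagine synthesis were among the lower ones: ASNS stood at 11.21, 11.17 and 11.19 against 10.40, 10.55 and 10.46 (-0.72 ± 0.05, adjusted p = 1.15e-06), PSAT1 fell by 0.62 ± 0.05, PHGDH by 0.57 ± 0.05 and the ATF4 target TRIB3 by 0.67 ± 0.06. Of 17 heat shock genes 8 fell and 6 rose, with DNAJB1 at -0.56 ± 0.05 and STIP1 at -0.39 ± 0.05, and HSPA4 and HSPH1 at 0.77 ± 0.10 and 0.72 ± 0.09.

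Interferon genes fell in 14 of 20 cases and rose in 6, beside 51.2% and 34.9% of all genes, with a median of -0.39. The lower ones included genes of antigen processing: TAP1, the peptide transporter, stood at 10.29, 10.15 and 10.12 against 9.55, 9.58 and 9.49 (-0.64 ± 0.06, adjusted p = 2.63e-06), the immunoproteasome subunit PSMB9 fell by 0.52 ± 0.05, and the interferon-induced gene IFI35 fell by 0.71 ± 0.06. IFIT1, an antiviral RNA-binding protein, rose by 0.77 ± 0.08, and its relatives IFIT5 and IFIT3, named after their values were seen, by 1.09 ± 0.14 and 0.82 ± 0.13. Of 18 p53 target and apoptosis genes 9 fell and 7 rose, among them PMAIP1 and TP53INP1, which rose by 1.29 ± 0.12 and 1.32 ± 0.15, and TNFRSF10B and TP53I3, which fell by 0.70 ± 0.07 and 0.51 ± 0.05. Hypoxia and glycolysis genes rose in 9 of 33 cases and fell in 14, both shares below those of all genes, with a median of -0.05. PDK1, which closes the gate from pyruvate to the mitochondrion, stood at 8.36, 8.53 and 8.47 against 10.34, 10.33 and 10.33 (1.88 ± 0.14, adjusted p = 1.55e-06), with another probe set at 0.48, BNIP3L, a receptor for mitophagy, rose by 1.74 ± 0.17, P4HA1 by 1.12 ± 0.09 and KDM3A by 1.00 ± 0.08.

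Lists of general cell functions were mixed and near the shares of all genes (51.2% lower and 34.9% higher). Proteasome subunits fell in 16 of 33 cases and rose in 12, with PSMC4 at -0.75 ± 0.07, PSMB10 at -0.54 ± 0.07 and PSMD14 at 0.68 ± 0.08. Ubiquitin-specific proteases and E2 enzymes fell in 24 of 52 and rose in 21: USP33 rose by 1.63 ± 0.13, UBE2Q2 by 1.49 ± 0.10 and USP46 by 0.78 ± 0.07, and USP19 fell by 0.62 ± 0.06. RAB GTPases, which direct vesicles, fell in 14 of 35 and rose in 15, with RAB5C at -0.83 ± 0.10, RAB1B at -0.67 ± 0.07, RAB32 at -0.61 ± 0.05 (-0.39 as the mean of its probe sets) and RAB10 at 0.59 ± 0.07, another of whose probe sets gave 0.05. These 3 lists each hold members of one complex or family that moved oppositely.

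Nuclear gene groups were mixed as well. Their shares, like those of the other lists of this paragraph, were near the 51.2% lower and 34.9% higher of all tested genes. Splicing factors fell in 32 of 68 cases and rose in 19, with SNRPA, PRPF19, LSM10 and PRPF6 at -0.85 ± 0.08, -0.80 ± 0.04, -0.69 ± 0.07 and -0.61 ± 0.05. Chromatin genes fell in 32 of 69 and rose in 25: the demethylase KDM7A rose by 1.97 ± 0.17, HDAC9 by 1.44 ± 0.13 and SMARCE1 by 0.77 ± 0.07. Zinc finger genes fell in 48 of 95 and rose in 31, with ZNF580, ZNF593 and ZNF362 at -0.88 ± 0.07, -0.84 ± 0.06 and -0.67 ± 0.05 and ZNF266 at 0.87 ± 0.07. Cholesterol and fatty acid genes fell in 10 of 23 and rose in 9; INSIG1, which holds the sterol sensor in the endoplasmic reticulum, rose by 0.73 ± 0.06, while DHCR7 fell by 0.74 ± 0.07, CPT1A by 0.62 ± 0.07 and LSS by 0.51 ± 0.06. Of 10 small RNA pathway genes 5 fell and 4 rose: TARBP2 and XPO5 fell by 0.62 ± 0.07 and 0.32 ± 0.06, and TNRC6A and TNRC6B rose by 0.69 ± 0.10 and 0.76 ± 0.13, the last with another probe set at -0.03.

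The same NFKB1 siRNA was also given without ETV6 siRNA, and that comparison, NFKB1 siRNA against control, shares no array with the one described so far. Most genes that passed in both moved oppositely, and a short list moved the same way. With NFKB1 siRNA alone 1200 genes were higher (15.5%) and 1948 lower (25.1%). This split turned with scaling, to 2429 higher and 1476 lower with arrays at a common median and to 2192 and 1620 after quantile normalization, and only 708 genes were higher without NFKB1 siRNA replicate 2 and 796 without its replicate 1. As deposited, 99 were higher and 229 lower in both settings, whereas 1445 were higher with ETV6 siRNA and lower without it (53.3% of the genes higher in the first comparison, 74.2% of those lower in the second), and 927 were lower with it and higher without (23.3% and 77.2%). Which of the opposite classes was larger also depended on scaling, with 1065 and 2079 genes at a common median and 1169 and 1842 after quantile normalization. Without NFKB1 siRNA replicate 2 they held 1193 and 532 genes, and without its replicate 1 they held 1220 and 572. Across the 7760 genes, which are not independent replicates, the differences correlated at r = -0.61 (Spearman -0.58), between -0.68 and -0.42 over the 22 alternatives. The weakest of these, -0.42, came without control siRNA replicate 3, the control array that lay toward the double arrays. The interaction, which tests whether the difference with NFKB1 siRNA depends on ETV6 siRNA, was positive for 2834 genes (36.5%) and negative for 3864 (49.8%).

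The genes lower in both settings included the 4 lowest of the comparison of double with ETV6 siRNA, NOL6 (-0.55 without ETV6 siRNA) among them. The difference of MRPS12 was -1.29 without ETV6 siRNA and -1.83 with it, that of MICALL1 -1.06 and -1.68, that of ACTA2 -0.98 and -1.56, and that of the neurofilament gene NEFL -0.75 and -1.09, though another probe set of NEFL gave -0.30 in the second. NFKB1 itself was at -0.73 and -1.26, and its interaction of -0.53 did not pass (adjusted p = 0.061). CCL2, at -0.54 and -0.89, and PLAU, at -0.40 and -0.91, fell in both settings too. Of the 99 genes higher in both the rule named PTPRO, a receptor phosphatase (0.77 and 0.91), ND4, a mitochondrially encoded subunit of complex I (0.59 and 0.87), the cyclin gene CCNL2 (0.54 and 0.57) and PPP1R3C, which targets a phosphatase to glycogen (0.50 and 0.75). The double arrays of 2 of them were uneven: ND4 stood at 12.99, 12.33 and 13.38 and PTPRO at 8.44, 7.92 and 8.72, replicate 2 being the lowest in both, and the ETV6 siRNA arrays stood at 12.05, 12.03 and 12.01 and at 7.63, 7.38 and 7.35.

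Genes that moved oppositely included kinases, an integrin and stress genes. LRRC58 was at -1.74 with NFKB1 siRNA against control and at 1.80 with double siRNA against ETV6 siRNA, where its arrays went from 7.86, 8.11 and 7.66 to 9.67, 9.68 and 9.68. The control mean of LRRC58 was 9.49, close to the double arrays. The control mean of SPOPL was 8.96, from which NFKB1 siRNA differed by -1.33 and ETV6 siRNA by -1.25, both against the same control arrays, while the double arrays lay at 9.82, 9.73 and 9.88. PI15 gave -1.60 and 2.29, the kinase PRKD3 -1.43 and 1.64 and PANK3, a kinase of coenzyme A synthesis, -1.41 and 1.60, and BCAT1, which starts the breakdown of branched-chain amino acids, -2.19 and 1.27, with another probe set of BCAT1 at -0.67. ITGB1 gave -1.07 and 0.96. In the other direction HMOX1 gave 1.15 and -1.07, C8orf58 0.64 and -0.62, the calcium channel ORAI3 0.60 and -0.57 and the amino acid transporter SLC7A5 0.55 and -0.61. For HECTD3 and TMEM158 the interaction of -1.31 and -1.27 went with -1.16 and -1.19 for double siRNA and with 0.15 and 0.08 for NFKB1 siRNA alone, neither of which passed.

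**Figure D4:**
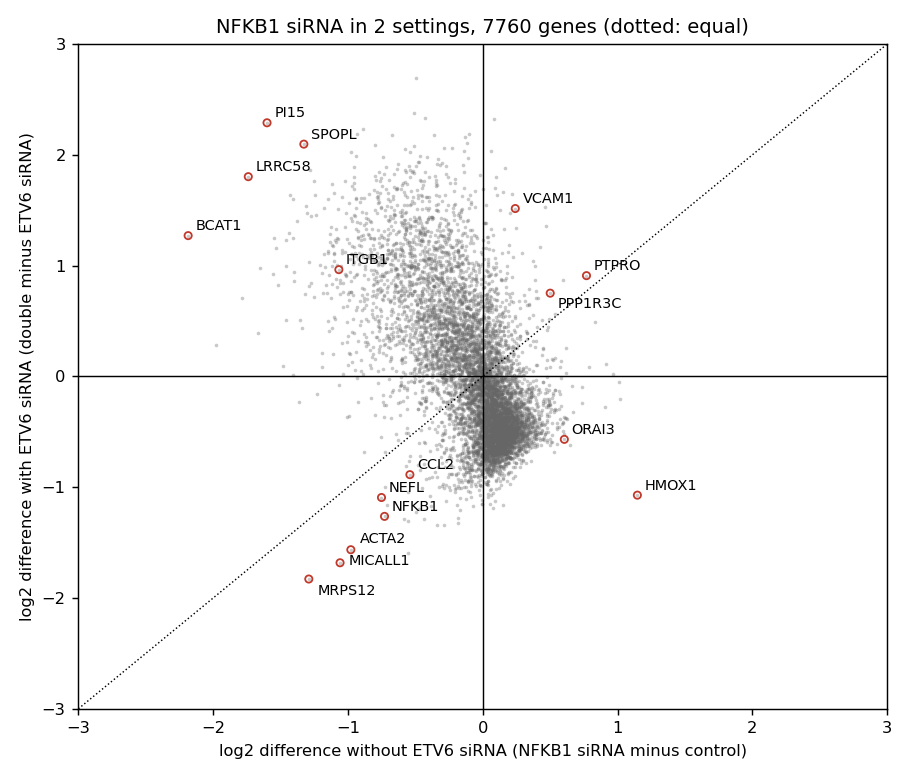
Each of 7760 tested genes is 1 point: on the x axis its log2 difference with NFKB1 siRNA against control, on the y axis its log2 difference with double siRNA against ETV6 siRNA; the dotted line marks equal differences. The cloud runs from upper left to lower right (r = -0.61), and MRPS12, MICALL1, ACTA2, NEFL and NFKB1 lie away from it near the dotted line.

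The lists differed in how they moved with NFKB1 siRNA alone, where 15.5% of all genes were called higher and 25.1% lower. Genes of G2/M fell in 19 of 37 cases and rose in 9 with NFKB1 siRNA alone (16 and 10 with arrays at a common median), against 4 and 31 with double over ETV6 siRNA. The hypoxia and glycolysis list rose in 21 of 33 cases and fell in 0 with NFKB1 siRNA alone, with a median of 0.25 beside 0.01 for all genes. With double over ETV6 siRNA 27.3% of that list rose and 42.4% fell, beside 34.9% and 51.2% of all genes. Of 29 extracellular matrix genes 11 fell, 0 rose and the others were not called with NFKB1 siRNA alone, with a median of -0.11 (-0.02 with arrays at a common median). NF-kB subunits and inhibitors gave 2 lower and 1 higher of 7 without ETV6 siRNA (TNIP1 rose by 0.51), or 2 and 3 with arrays at a common median, and the interaction was called lower for 5 of them and higher for 1, CYLD, at 0.52.

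The differences varied by chromosome. Taking chromosomes from the promoter table, with 22 represented, the median was below 0 on 14 and above 0 on 8. Over all tested genes 51.2% were lower and 34.9% higher, and the median was itself below 0, at -0.15. On chromosome 19, with 381 genes, 90.8% were lower and 3.15% higher, with a median of -0.54; chromosomes 22, 16 and 17 followed at -0.46, -0.44 and -0.37. On chromosome 13, with 115 genes, 65.2% were higher and 22.6% lower, with a median of 0.40; chromosomes 4 and 18 followed at 0.31 and 0.21. For NFKB1 siRNA alone the medians ran in a largely opposite order, at 0.09 on chromosome 19 and -0.24 on chromosome 13, and over the 22 chromosomes both sets of medians correlated at -0.96. The median GC content of promoters was 66.0% on chromosome 19 and 67.3% on chromosome 13. The GC content of transcripts, probes or whole chromosomes was not examined. Across genes, the median difference was lower at higher promoter GC, from -0.02 in the fifth of genes with the lowest GC (at most 57.7%) to -0.31 in the fifth with the highest (at least 74.0%).

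**Figure D5:**
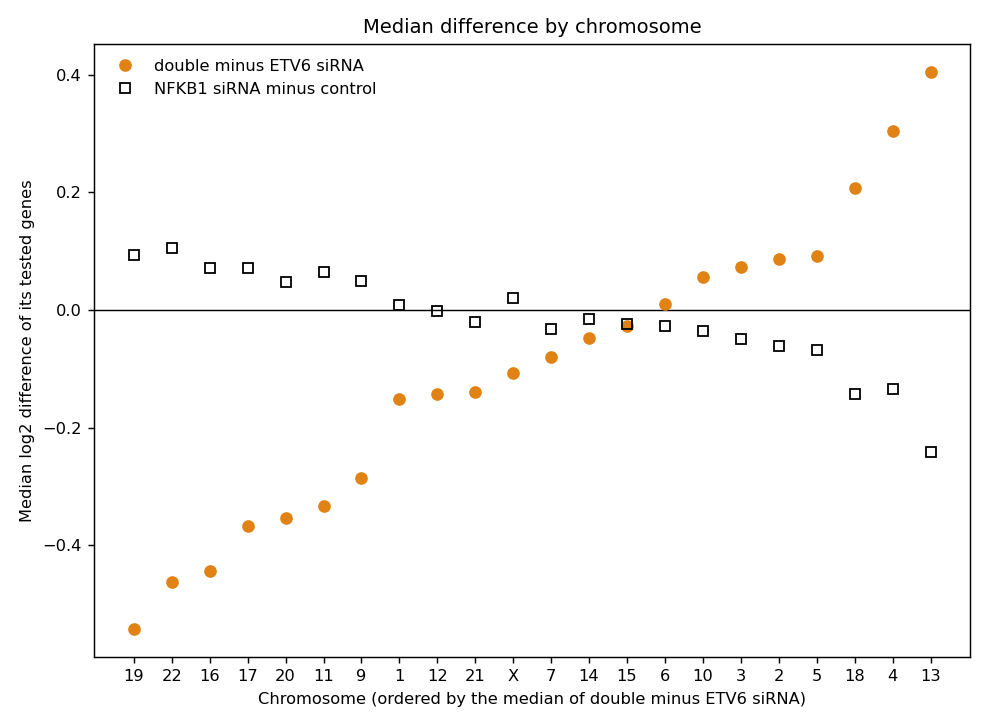
Median log2 difference of the tested genes of each chromosome, ordered by the comparison of double with ETV6 siRNA (orange circles), with NFKB1 siRNA against control as open squares. The orange medians run from -0.54 on chromosome 19 to 0.40 on chromosome 13, and the squares run the other way over a smaller range, from 0.11 on chromosome 22 to -0.24 on chromosome 13.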

How the data were processed

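Total RNA of transfected U251 cells was hybridized to Affymetrix expression arrays, 1 per sample, per the labels' protocols. The authors deposited log2 probe set values between 3.05 and 14.7; background correction, summarization and normalization are not given in the sources used here. Control probe sets (57) were left out of tests. Of 19520 probe sets 17313 named 1 gene in the platform table, 857 several and 1293 none; 17307 matched a RefSeq gene. The brightest probe set per gene was kept (10346 genes). Genes whose mean fell short of the 25th percentile, log2 7.54, were not tested, ETV6 and NFKB1 excepted.

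The test was limma's (version 3.58.1, R 4.3.3; lmFit and eBayes) with 4 group means over 12 arrays (8 residual and 3.41 prior degrees of freedom). Tests were two-sided, and Benjamini-Hochberg adjusted p under 0.05 was called. The script was tested on simulated data. With 3 against 3, exact permutation p-values stop at 0.1. Arrays with identical values were looked for (0 pairs). Precision is limited by the number of arrays. The comparison, gene lists and naming rule were chosen with earlier results of these data known, so no p is given for a list. By the rule, ETV6, NFKB1, the 12 highest and 12 lowest called genes whose groups do not overlap (without unannotated symbols), all measured members of the lists of NF-kB subunits and inhibitors, NF-kB targets and ETS factors, the 4 members of lowest adjusted p in every other list, 4 genes for each pair of directions against NFKB1 siRNA minus control, and the 4 highest and lowest interactions were named. Replicate numbers 1 to 3 recur in all groups; whether they pair samples was checked by the correlation of same-numbered deviations.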

Additional observations from a re-analysis of the deposited data

Results flagged for a closer look

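The difference that came with NFKB1 siRNA depended on ETV6 siRNA by the interaction test for 2834 genes upward and 3864 downward. On the log2 scale it was 3.89 for PI15, 3.54 for LRRC58, 3.46 for BCAT1, 3.42 for SPOPL, 3.07 for PRKD3 and 3.01 for PANK3. In the other direction it was -2.22 for HMOX1, -1.31 for HECTD3, -1.27 for TMEM158, -1.27 for C8orf58, -1.17 for ORAI3 and -1.16 for SLC7A5. It was smaller, and of the same sign as the difference in each setting, for MICALL1 at -0.62, ACTA2 at -0.59, MRPS12 at -0.54, NEFL at -0.34 and PPP1R3C at 0.25.

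A control probe set for the Alu repeat, which the gene comparisons do not use, averaged 14.42 on the log2 scale with double siRNA (14.36 to 14.46), above the 14.04 to 14.15 of the control siRNA arrays. With ETV6 siRNA it lay at 14.11 to 14.18.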

How the results depend on the processing

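Of the 181 called genes that the rule named, 3 lost their call under an alternative (CFLAR, ETV5 and RPL7), and 1 changed sign with a call: GCLM was at 0.32 as the mean of its probe sets. SOX2, AURKB and MKI67 were the 3 that lost it among 9 called genes named after their values were seen. Among genes the rule named that were not called, CD40, ETS2, FLI1 and CYLD passed under some alternatives. These gene by gene checks took 1 value per gene, so a single probe set other than the brightest could not enter them. As given above, BCAT1, SLC7A11, ELF2 and TNRC6B each had another probe set of opposite sign. That was not counted as a change of sign, so the counts do not cover disagreement between single probe sets. With a filter at the 50th percentile the double siRNA comparison called 4426 genes, 1776 higher, with 821 and 713 past 1.5-fold higher and lower, and the interaction called 4418 (1862 higher, 2556 lower). With every probe set tested it called 14311, 6826 higher and 7485 lower, with 4327 and 2176 past 1.5-fold; NFKB1 siRNA against control called 6035 (1926 higher, 4109 lower) and the interaction 14416 (7043 higher, 7373 lower). The totals follow the number of features tested, but the split of directions did not stay the same. With every probe set 47.7% of the calls of double against ETV6 siRNA were higher, against 40.6% with the brightest probe set per gene. The split thus also depended on which probe sets were used. Genes lower by more than 1.5-fold were 2106 with arrays set to a common median and 1911 after quantile normalization. Higher genes with NFKB1 siRNA alone were 2429 and 2192 under these, 2331 with array weights and, with only the 6 arrays compared, 555 of 1855 called; the cause was not tested. Leaving out each array in turn moved these from 708 to 1572, the lowest without NFKB1 siRNA replicate 2 and 796 without replicate 1, while double against ETV6 siRNA stayed at 2569 to 2742 higher and 3818 to 4015 lower.

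Same-numbered ETV6 and double siRNA arrays did not deviate together (correlations of -0.18 to 0.08). Over the 18 same-numbered pairs of all groups the correlations ran from -0.52 to 0.48. With 3 arrays per group this check cannot exclude that the numbers pair samples. With a replicate block 2707 genes were higher and 3980 lower. Limits are the weaker ETV6 knock-down of the double group, a total siRNA load that the labels leave unsettled and the control probe sets in which its arrays stand apart.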
